A study of Mus musculus with 2 samples.

Results

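*Spp1*, *Ibsp*, *Dmp1* and *Mepe* encode the SIBLING proteins (small integrin-binding ligand, N-linked glycoproteins) of the bone matrix. They were chosen by their gene symbols, and all 4 were found among the 32285 genes counted in single cells of the murine femur. Each of the 2 groups was 1 single-cell library. The untreated group was femoral cells of C57BL/6J mice, 7 weeks old, and the calcitriol-injected group was the same kind of cells from mice of that strain and age that had received repeated daily intravenous injections of calcitriol, the hormonal form of vitamin D. The femurs of several mice had been pooled within each group, the epiphyses and the flushed marrow had been discarded, and CD45-positive cells had been depleted after digestion with collagenase and EGTA. Since there was 1 library per group, no test between the groups was possible, and the variation between mice cannot be told apart from the treatment.

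SIBLING proteins are secreted and phosphorylated, most of them are rich in acidic residues, and they bind to cells through integrins. Osteopontin (*Spp1*) restrains the growth of mineral crystals and also attaches osteoclasts to bone, while bone sialoprotein (*Ibsp*) favours the first deposition of mineral. Dentin matrix protein 1 (*Dmp1*) and matrix extracellular phosphoglycoprotein (*Mepe*) are known from osteocytes, the cells buried in bone, where loss of *Dmp1* raises the phosphate-lowering hormone FGF23 and where peptides cut from MEPE inhibit mineralization. The protein kinase FAM20C phosphorylates the family, and the membrane protease PHEX degrades its inhibitory peptides. *Spp1* is a classical target gene of the vitamin D receptor.

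The genes lay next to each other on the plus strand of chromosome 5 (GRCm38), together with *Dspp*, the dentin gene of the family. Their order was *Dspp* (chr5:104170712-104180127), *Dmp1* (ENSMUSG00000029307, chr5:104202613-104214102), *Ibsp* (ENSMUSG00000029306, chr5:104299171-104311469), *Mepe* (ENSMUSG00000053863, chr5:104325329-104338611) and *Spp1* (ENSMUSG00000029304, chr5:104435118-104441050). These 5 genes were the only protein-coding genes annotated in the 270339 bases that they spanned. The gaps between neighbours were 22485, 85068, 13859 and 96506 bases in this order. *Dspp* had 0 UMIs (unique molecular identifiers, each marking 1 captured mRNA molecule) in both libraries and is not described further.

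**Figure D1:**
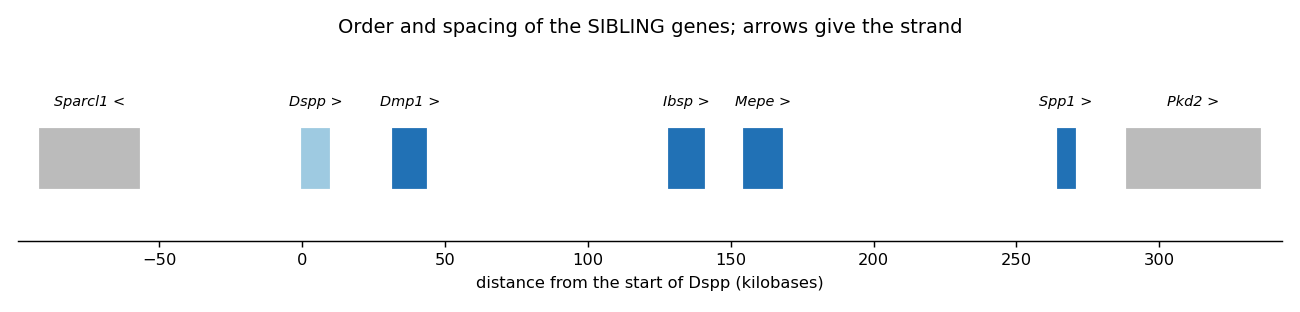
Map of the SIBLING genes on chromosome 5 of GRCm38. The x axis is the distance from the start of *Dspp* in kilobases, boxes are genes to scale, dark blue boxes are the 4 genes described here, the light blue box is *Dspp*, grey boxes are the flanking genes *Sparcl1* and *Pkd2*, and > and < give the plus and minus strand. The 5 family genes share the plus strand, and *Ibsp* and *Mepe* are the closest pair, 13859 bases apart.

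The sequences just before the start sites are shown because the 4 promoters shared a pair of short elements. RefSeq promoter windows (build GRCm38.p6, 250 bases before to 50 bases after the start site) were available for all 4 genes. In each of them, ATTGG, which is the CCAAT box read on the other strand, was followed by TTTAAA or TTTATA on the plus strand, with exactly 26 bases from the first base of the one to the first base of the other. The sequences below are 62 bases each from the plus strand, 5′ to 3′, and capitals mark the pair.
Spp1, chr5:104435045-104435106: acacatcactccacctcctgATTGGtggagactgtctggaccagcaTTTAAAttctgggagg
Ibsp, chr5:104299213-104299274: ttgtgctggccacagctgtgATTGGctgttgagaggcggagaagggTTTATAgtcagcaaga
Dmp1, chr5:104202540-104202601: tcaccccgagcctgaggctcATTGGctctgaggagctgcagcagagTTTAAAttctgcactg
Mepe, chr5:104325288-104325349: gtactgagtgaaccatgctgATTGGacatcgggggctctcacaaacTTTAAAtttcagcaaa

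Relative to the RefSeq start site, ATTGG began at -46 in *Spp1*, -54 in *Ibsp*, -57 in *Dmp1* and -21 in *Mepe*. The second element of *Mepe* therefore lay past the start site, at base 6. For *Ibsp*, the GENCODE gene began 116 bases upstream of the RefSeq start site, so that the bases shown for *Ibsp* lie inside the gene as GENCODE draws it. Among all 32851 promoter windows, the pair with this spacing was held by 17 windows (0.0517%), which belong to 13 gene symbols. Besides the 4 members, these were *Sost*, the gene of the osteocyte protein sclerostin, *Mbd3*, *Vsnl1*, a pair of olfactory receptor genes and 4 predicted genes. ATTGG alone, on either strand, was found in the 250 bases before the start site in 33.8% of the windows. The pair was chosen after these sequences had been seen, and it is a description of letters, not of the binding of a factor. The core motif of RUNX factors, ACCACA on either strand, was found in the 250 bases before *Spp1*, *Dmp1* and *Mepe*, and in 14.05% of all windows. Of the hexamers known from binding sites of the vitamin D receptor that were searched on both strands, AGGTCA was found in none of the 4 windows and GGTTCA in that of *Mepe* alone. In the 250 bases before the start site, AGGTCA was held by 14.02% and GGTTCA by 8.85% of all windows. Bases outside these windows were not searched, so sites farther from the start site are not covered.

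The coding sequences had little length in common, with 295 codons in *Spp1*, 324 in *Ibsp*, 503 in *Dmp1* and 441 in *Mepe* (GENCODE vM21, longest coding sequence). Each held exactly 1 run of codons for arginine, glycine and aspartate, the integrin-binding triplet of the family. The run is shown with 4 codons before it and 4 after it, 5′ to 3′, with the triplet in capitals.
Spp1, codon 145: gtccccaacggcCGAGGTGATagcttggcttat
Ibsp, codon 293: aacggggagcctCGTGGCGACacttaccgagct
Dmp1, codon 350: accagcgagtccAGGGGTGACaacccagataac
Mepe, codon 183: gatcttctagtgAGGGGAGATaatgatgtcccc

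The position of the triplet differed, since it was followed by 29 codons in *Ibsp* and by 256 codons in *Mepe*. Codons for serine, any residue and glutamate, the usual target of the kinase FAM20C, occurred 40 times in *Dmp1*, 20 times in *Spp1*, 8 times in *Ibsp* and 7 times in *Mepe*. Acidic codons made up 28.0% of *Dmp1*, 24.1% of *Ibsp*, 23.1% of *Spp1* and 10.7% of *Mepe*. *Ibsp* alone had a long run of glutamate codons, with 11 in a row, against 2 in the other members.

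The untreated library held 6076 barcodes with 70266983 UMIs and the calcitriol library 4562 barcodes with 60392557 UMIs, at a median of 10014.5 and 10646.5 UMIs per barcode. The libraries shared 8 barcodes, of which 2 were kept in both. After filters on barcodes with under 200 genes and on clusters of low quality, 4400 untreated and 3691 calcitriol cells were kept. They were clustered without the 4 members, so that the members did not define the cells they are described in. Of 24 clusters, 23 could be named from marker genes, and the 7 erythroid-like clusters were taken as 1 population, which gave 17 populations. Several are called by a gene that led them (*Bglap*-high and *Postn*-high osteoblast-like, *Col10a1*, *Matn3* and *Notum* chondrocyte-like, and so on). The cell mix differed, since erythroid-like cells numbered 2309 in the untreated and 434 in the calcitriol library, and haemoglobin took 41.2% and 10.6% of all UMIs. A level is a gene's share of all UMIs of a population, scaled to CPM, so that 52627 CPM stands for 5.26% of the UMIs. The counts come from the 3′ end, 1 per molecule, so that levels of different genes were compared as molecules, without a correction for length. Brackets hold exact 95% intervals, which cover counting error only. A gene was called between the libraries when its level differed over 2-fold, among genes with at least 50 UMIs in that population. In a sum of UMIs, fewer expressing cells and fewer molecules per cell cannot be told apart, and shares of cells are therefore given beside the levels.

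The members took 0.474% of the untreated and 1.83% of the calcitriol UMIs. Over all kept cells, *Spp1* was at 3630 CPM untreated and 13318 CPM with calcitriol, *Ibsp* at 2033 and 5878 CPM, *Dmp1* at 71.6 and 245 CPM, and *Mepe* at 11.3 and 100.1 CPM. These sums follow the cell mix as well as the level within a cell type, and all further comparisons were made within populations.

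*Spp1* was the most abundant member in most populations and reached far beyond bone cells. In the untreated library it was highest in the osteocyte-like cells (52627 CPM, 96 cells), followed by *Bglap*-high osteoblast-like cells (23414 CPM, 53 cells), *Col10a1* chondrocyte-like cells (16922 CPM, 75 cells), which express the collagen of hypertrophic cartilage, and *Postn*-high osteoblast-like cells (5891 CPM, 296 cells). In the calcitriol library, the *Bglap*-high osteoblast-like cells were first (92082 CPM, 64 cells), ahead of the osteocyte-like cells (85267 CPM, 227 cells), the *Postn*-high osteoblast-like cells (32408 CPM, 263 cells) and the *Col10a1* chondrocyte-like cells (14274 CPM, 113 cells). Neighbours in these orders did not overlap in their counting intervals. Among these populations, *Spp1* thus passed from second place to first in mature osteoblast-like cells, where 9.21% of all UMIs were of *Spp1*. This order depends on how the osteocyte-like cells are grouped. In a finer clustering, described below, their *Phex*-high group was at 145776 CPM with calcitriol, above the *Bglap*-high cells, and their *Tnfrsf11b*-high group at 62482 CPM.

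The share of cells with a UMI of *Spp1* was larger in the calcitriol library also in erythroid-like cells, which should lack it, with 15.5% against 43.1% at median depths of 10416 and 9865 UMIs. A UMI of *Spp1* was found in 50% [44.2, 55.8] of the untreated and 87.5% [82.8, 91.2] of the calcitriol *Postn*-high cells, and the median *Postn*-high cell held 0.5 and 36 UMIs. The median *Bglap*-high cell held 220 UMIs in the untreated and 998.5 UMIs in the calcitriol library, and the median osteocyte-like cell 359 and 695 UMIs. In *Col10a1* chondrocyte-like cells the share was 64.0% [52.1, 74.8] and 85.0% [77.0, 91.0], at median depths of 39312 and 39383 UMIs. Their median cell held 2 and 5 UMIs, and 42.7% and 46.9% of them held at least 10 UMIs, so no difference was read from the share. Most of the *Spp1* of these chondrocyte-like cells came from few cells, since 10 cells held 74.4% and 59.4% of it.

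Between the libraries, *Spp1* was over 2-fold higher with calcitriol in both osteoblast-like populations. The log2 ratio was 1.98 [1.96, 1.99] in the *Bglap*-high and 2.46 [2.44, 2.48] in the *Postn*-high cells. It was 0.70 [0.68, 0.71] in the osteocyte-like cells, short of 2-fold, and -0.25 [-0.26, -0.23] in the *Col10a1* chondrocyte-like cells. *Cytl1* articular surface-like cells had 1486 CPM and 4585 CPM, a log2 ratio of 1.62 [1.58, 1.67]. *Notum* chondrocyte-like cells, at 3390 and 4935 CPM, differed by 0.54 [0.50, 0.58].

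Outside bone and cartilage, *Spp1* was also high in some tendon-like cells. The *Angptl7* tendon-like cells had 3729 CPM untreated and 8534 CPM with calcitriol (log2 ratio 1.19 [1.16, 1.23]), and the *Igfbp2* tendon-like cells 581 and 2531 CPM (2.12 [2.02, 2.23]). These levels came largely from few cells. In *Angptl7* cells, 10 cells held 68.3% and 61.8% of the *Spp1* UMIs, and the median cell held 0 and 1 UMIs. In *Igfbp2* cells, 10 cells held 65.8% and 73.1%, and the median cell held 1 and 2 UMIs. The *Chodl* tendon-like cells stayed low, with 209 and 230.5 CPM and an interval of the log2 ratio that held 0 (0.14 [-0.10, 0.39]). In several populations 1 cell held a large part of the *Spp1* UMIs. In *Flt1* endothelial-like cells, *Spp1* was at 52.0 and 1101 CPM, a log2 ratio of 4.41, but 2377 of the 2534 calcitriol UMIs lay in 1 of 266 cells. Without the top cell of each library the levels were 31.4 and 69.3 CPM, over 2-fold apart, beside 19.6 and 69.1 CPM in erythroid-like cells. In fibroblast-like cells, at 71.6 and 594 CPM (log2 ratio 3.05 [2.90, 3.21]), 1 cell held 49.0% of the UMIs without and 48.3% of those with calcitriol, and the levels without these cells were 36.7 and 307 CPM. In *Matn3* chondrocyte-like cells, at 559 and 1071 CPM, 1 calcitriol cell held 56.3%, and the level without the top cell was 469 CPM untreated and 478 CPM with calcitriol. An unnamed cluster of 33 untreated and 9 calcitriol cells, led by *S100a9* and *S100a8*, had *Spp1* at 6715 and 33046 CPM, where 1 cell held 56.6% and 81.4% of the UMIs.

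**Figure D2:**
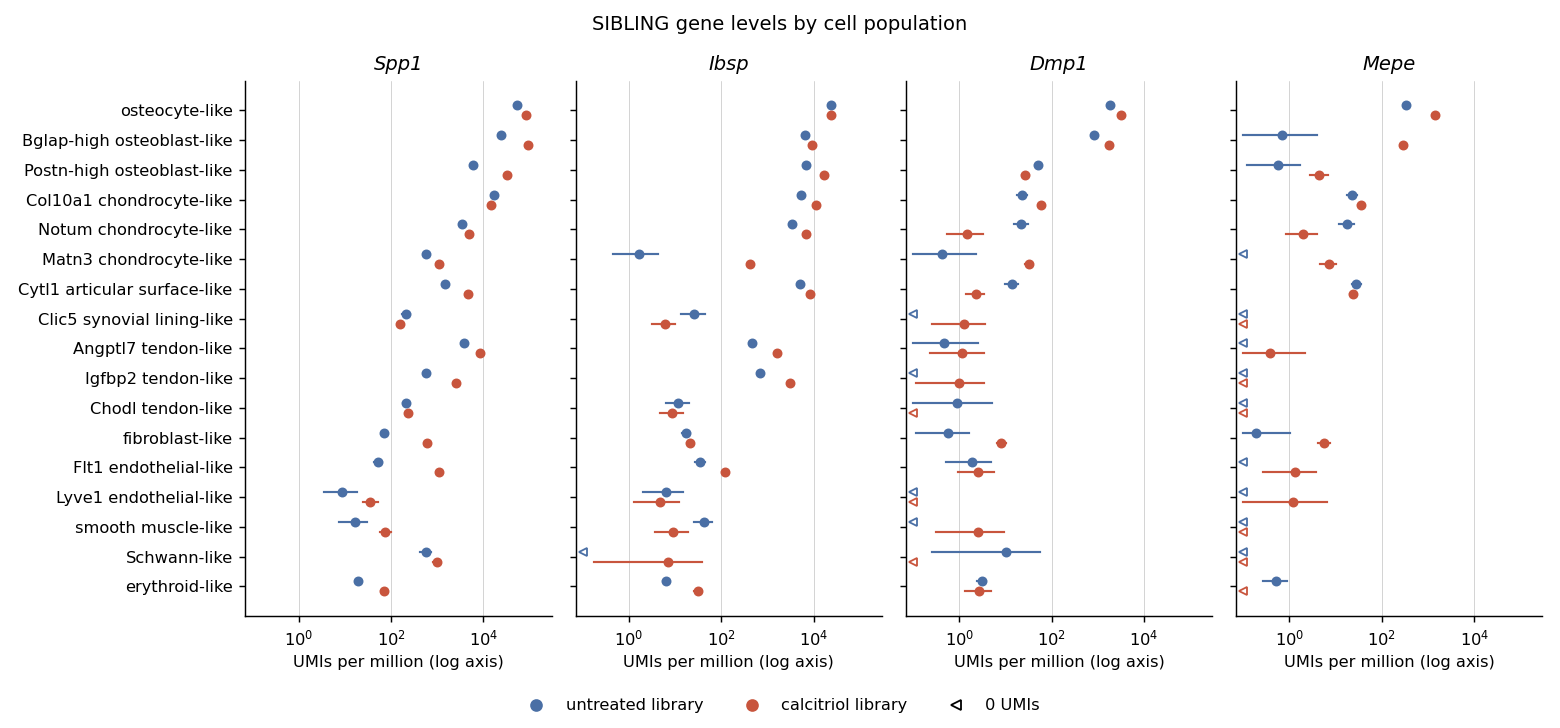
Level of each SIBLING gene in 17 cell populations of the untreated (blue) and calcitriol (red) library. The x axis is UMIs scaled to CPM on a log axis, lines are 95% counting intervals, and open triangles are populations with 0 UMIs; *Spp1* and *Ibsp* span bone, cartilage and tendon populations, while *Dmp1* and *Mepe* are high in the osteocyte-like and *Bglap*-high populations, *Mepe* in the latter through 1 calcitriol cell.

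*Ibsp* shared the bone and cartilage pattern of *Spp1* with another order. It was highest in osteocyte-like cells in both libraries, with 23881 CPM untreated and 23511 CPM with calcitriol. *Postn*-high osteoblast-like cells followed, with 6638 and 16325 CPM. In the untreated library their interval overlapped that of the *Bglap*-high cells (6442 CPM). With calcitriol, the *Col10a1* chondrocyte-like cells (11084 CPM) stood ahead of the *Bglap*-high cells (9124 CPM). The first place of the osteocyte-like cells came from their *Tnfrsf11b*-high group in the finer clustering described below (27331 and 30987 CPM). Their *Phex*-high group, which alone kept the osteocyte-like name there, had 5618 and 3893 CPM, below both osteoblast-like populations of the same library.

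Articular surface-like cells, marked by *Cytl1* and the lubricin gene *Prg4*, held more *Ibsp* than *Spp1*. *Ibsp* was at 5144 CPM untreated and 8161 CPM with calcitriol, and for each UMI of *Ibsp* there were 0.289 and 0.562 UMIs of *Spp1*. In osteocyte-like cells the same ratio was 2.20 and 3.63, and in *Bglap*-high osteoblast-like cells 3.63 and 10.1. In *Postn*-high osteoblast-like cells *Ibsp* led in the untreated library, with 0.887 UMIs of *Spp1* per UMI of *Ibsp*, and *Spp1* led in the calcitriol library, with 1.99. A UMI of *Ibsp* was found in 53.6% [46.3, 60.7] of the untreated and 65.4% [61.3, 69.3] of the calcitriol articular surface-like cells. The *Clic5* synovial lining-like cells, which also carry *Prg4*, had 12 and 14 UMIs of *Ibsp* in total. The *Matn3* chondrocyte-like cells had 4 UMIs of *Ibsp* in the untreated library. In the calcitriol library the *Matn3* cells had 1559 UMIs, of which 1 cell held 70.9%.

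The difference between the libraries was smaller for *Ibsp* than for *Spp1* in both osteoblast-like populations. The log2 ratio of *Ibsp* was 0.50 [0.46, 0.54] in the *Bglap*-high and 1.3 [1.28, 1.32] in the *Postn*-high cells. In osteocyte-like cells it was -0.023 [-0.041, -0.0039], a difference that changed sign with the choice of cells and totals, between -0.53 and 0.83 over 13 alternatives. *Col10a1* chondrocyte-like cells had a log2 ratio of 1.04 [1.01, 1.07] for *Ibsp*, on the other side of 0 from their *Spp1*. In *Igfbp2* tendon-like cells, *Ibsp* went from 686 to 3013 CPM (2.13 [2.04, 2.23]) and in *Angptl7* tendon-like cells from 471 to 1571 CPM (1.74 [1.64, 1.84]). The median cell of both tendon-like populations held 0 UMIs of *Ibsp* in either library. Of the *Ibsp* UMIs, 10 cells held 88.2% and 58.6% in *Igfbp2* and 91.0% and 84.2% in *Angptl7* cells.

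*Dmp1* was concentrated in osteocyte-like and *Bglap*-high osteoblast-like cells. The osteocyte-like cells had 1811 CPM untreated and 3197 CPM with calcitriol, and the *Bglap*-high cells 809 and 1721 CPM. *Postn*-high cells, at 50.1 and 27.0 CPM, were far below, and every other population was at or under 60.3 CPM. A UMI of *Dmp1* was found in 58.5% [44.1, 71.9] of the untreated and 67.2% [54.3, 78.4] of the calcitriol *Bglap*-high cells.

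Among osteocyte-like cells, *Dmp1* was detected in 52.1% [41.6, 62.4] without and 38.3% [32, 45.0] with calcitriol, opposite to the level, so no order was read from the share. The positive cells held a median of 23.5 and 38 UMIs and at most 262 and 1993 UMIs. The log2 ratio was 0.82 [0.76, 0.88] from the summed UMIs. It was 0.024 when the cells' own CPM were averaged and -0.13 when each cell was thinned to 2000 UMIs. Within the groups of the finer clustering described below, it was 0.50 [0.43, 0.57] in *Phex*-high and -1.56 [-1.73, -1.39] in *Tnfrsf11b*-high cells. The *Phex*-high group made up 24 of the 96 untreated and 71 of the 227 calcitriol osteocyte-like cells, and the part of this mix in the ratio was not tested. In *Bglap*-high osteoblast-like cells the log2 ratio was 1.09 [0.99, 1.19]. The low levels of *Dmp1* in *Postn*-high cells gave a log2 ratio of -0.89 [-1.20, -0.58], but 139 of the 260 untreated UMIs came from 1 cell, and without the top cell the levels were 23.5 and 19.4 CPM.

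*Mepe* had the fewest UMIs of the members and was highest in osteocyte-like cells. Its level there was 330 CPM untreated and 1446 CPM with calcitriol, where 18.8% [11.5, 28.0] and 24.7% [19.2, 30.8] of the cells held a UMI. The positive cells held a median of 5.5 and 24.5 UMIs and at most 204 and 1035 UMIs. The log2 ratio was 2.13 [1.99, 2.27]. It fell under 2-fold when the cells' own CPM were averaged (0.61) and when cells were thinned to 2000 UMIs (0.70), while it was 2.65 without the cell with the most UMIs in each library.

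In *Bglap*-high osteoblast-like cells *Mepe* had 1 UMI in the untreated library and 472 UMIs in the calcitriol library, of which 467 lay in 1 of 64 cells. The calcitriol level was 291 CPM with that cell and 3.25 CPM without it. In *Postn*-high cells there were 3 and 22 UMIs. *Mepe* also reached 23.2 and 36 CPM in *Col10a1* chondrocyte-like and 28.2 and 23.4 CPM in articular surface-like cells, from 2 and 7 cells of the former and 8 and 10 cells of the latter. Among 434 calcitriol erythroid-like cells, 0 held a UMI of *Mepe*, and a count of 0, taken as under 3 cells, allows a share of cells with a UMI of up to 0.691%.

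**Figure D3:**
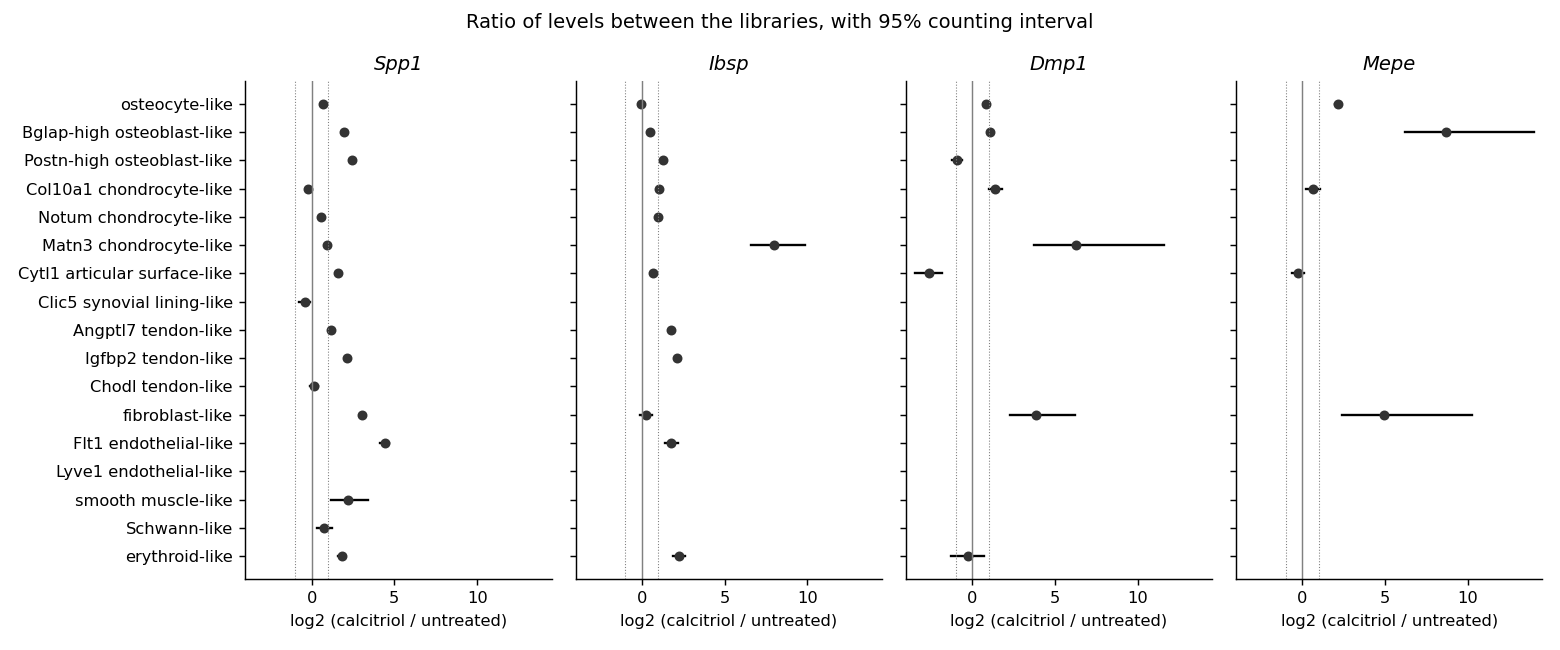
Log2 ratio of the level of each SIBLING gene, calcitriol over untreated library, by population. Lines are 95% counting intervals, dotted lines mark 2-fold in either direction, and populations with under 50 UMIs of the gene are left out; the ratios of *Spp1* in the osteoblast-like populations lie past 2-fold (1.98 and 2.46), and the *Mepe* ratio of the *Bglap*-high cells rests on 1 cell.

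Counted over populations with at least 50 UMIs, *Spp1* was over 2-fold higher with calcitriol in 9 of 16, *Ibsp* in 7 of 12, *Dmp1* in 4 of 8 and *Mepe* in 3 of 5. Among these were the erythroid-like cells for *Spp1* and *Ibsp*, which give the background. For *Spp1* they also included smooth muscle-like, fibroblast-like and *Flt1* endothelial-like cells, whose shares of cells with a UMI were not told apart from background. A single calcitriol cell held 119 of the 120 UMIs of *Dmp1* in *Matn3* cells, 164 of the 260 UMIs of *Dmp1* in *Col10a1* cells and 467 of the 472 UMIs of *Mepe* in *Bglap*-high cells, and these 3 calls were lost without it. The calls of *Dmp1* and *Mepe* in fibroblast-like cells were also lost without the top cell, since they fell under 50 UMIs. The interval of the ratio lay below 0 in 2 populations for *Spp1*, in 1 for *Ibsp* and in 2 for *Dmp1*. These counts were set beside the share of all genes that passed the same limit. In osteocyte-like cells, 1 of 4 members, *Mepe*, was over 2-fold higher, against 4.56% of 6449 genes, and no member was over 2-fold lower, against 2.42%. In both osteoblast-like populations together, 4 of 4 members were over 2-fold higher, against 3.32% of 9806 genes, and 2.63% of the genes were over 2-fold lower. The log2 ratios there were 2.29 [2.28, 2.30] for *Spp1*, 1.14 [1.12, 1.16] for *Ibsp*, 1.07 [0.98, 1.16] for *Dmp1* and 6.96 [5.6, 8.84] for *Mepe*, which had 4 untreated UMIs. Of the 494 calcitriol UMIs of *Mepe*, 467 lay in 1 cell. Without that cell *Mepe* fell under the minimum of 50 UMIs, so its call among the 4 rests on 1 cell. *Dmp1* stayed over 2-fold in 8 of 12 alternatives, with 0.49 at resolution 1.2 and 0.72 without integration, and *Ibsp* in 11 of 12, with 0.95 at resolution 1.2. The median log2 ratio of all genes was -0.097 in these osteoblast-like cells and 0.035 in the osteocyte-like cells.

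Within single populations, the members over 2-fold higher numbered 3 of 4 in *Bglap*-high cells (3.88% of all genes) and 2 of 3 in *Postn*-high cells (3.05%). In cartilage they numbered 2 of 4, *Ibsp* and *Dmp1*, in *Col10a1* cells (2.79%), 0 of 2 in *Notum* (4.58%) and 1 of 4 in articular surface-like cells (3.51%). The *Dmp1* call of the *Col10a1* cells was lost without the top cell of each library, at 18.2 and 22.8 CPM. The *Mepe* call of the *Bglap*-high cells was lost without 1 calcitriol cell, which held 467 of the 472 UMIs. Both measured members passed the limit in *Angptl7* tendon-like (3.78%), *Igfbp2* tendon-like (3.5%) and *Flt1* endothelial-like cells (1.71%), and 3 of 4 did in fibroblast-like cells (2.91%), where the levels of *Dmp1* and *Mepe* were 8.21 and 5.63 CPM at most. In the fibroblast-like cells, the top calcitriol cell held 31 of 73 UMIs of *Dmp1* and 31 of 50 UMIs of *Mepe*. Without it, 42 and 19 calcitriol UMIs were left beside 3 and 1 untreated UMIs, under the minimum of 50 UMIs for a call. Without the top cells, *Ibsp* of the *Flt1* cells was under 2-fold apart, at 7.84 and 15.3 CPM.

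The osteocyte-like population was not uniform. The osteocyte markers that counted for its name were the protease gene *Phex*, the sclerostin gene *Sost*, *Irx5*, *Dkk1*, *Ptprz1* and *Fbln7*. Each stood at least 2-fold above the other clusters. *Ackr3*, *Kcnk2*, *Wnt1* and *Cd109* of the same list did not count. The name thus rested on 6 osteocyte markers against 5 osteoblast markers. A finer clustering (resolution 1.2 in place of 0.8), also without the members and looked at after the first values were known, split nearly all of it into a *Phex*-high group of 24 untreated and 71 calcitriol cells and a *Tnfrsf11b*-high group of 70 and 155 cells. *Tnfrsf11b* encodes osteoprotegerin, a decoy receptor for the osteoclast cytokine RANKL. The *Phex*-high group held *Phex* at 1591 and 1791 CPM and *Sost* at 313 and 397 CPM. The *Tnfrsf11b*-high group held 1 UMI of *Sost* in each library and carried cartilage genes, with the 10 chondrocyte markers summing to 35629 and 23046 CPM against 3847 and 1585 CPM in the *Phex*-high group. In the finer clustering it counted more osteoblast markers (4) than osteocyte markers (3), so only the *Phex*-high group kept the osteocyte-like name there.

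The members divided between these groups. *Dmp1* was at 7905 CPM untreated and 11167 CPM with calcitriol in *Phex*-high cells, against 619 and 210.4 CPM in the *Tnfrsf11b*-high cells. *Mepe* was at 1974 and 5148 CPM in the *Phex*-high and at 7.03 and 58.7 CPM in the *Tnfrsf11b*-high group. *Ibsp* went the other way, with 5618 and 3893 CPM in the *Phex*-high and 27331 and 30987 CPM in the *Tnfrsf11b*-high cells. *Spp1* was abundant in both, at 32380 and 145776 CPM in the *Phex*-high and 56539 and 62482 CPM in the *Tnfrsf11b*-high group.

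The ratio of *Spp1* between the libraries was larger in the *Phex*-high group, a difference between groups that was not tested. Its log2 ratio was 2.17 [2.14, 2.20], a 4.5-fold difference, with a median of 166 UMIs in the untreated and 1109 UMIs in the calcitriol cells. In the *Tnfrsf11b*-high group the log2 ratio was 0.14 [0.13, 0.16], with medians of 538.5 and 603 UMIs. The other members of the *Phex*-high group had log2 ratios of 1.38 [1.24, 1.53] for *Mepe*, 0.50 [0.43, 0.57] for *Dmp1* and -0.53 [-0.62, -0.44] for *Ibsp*. In the *Tnfrsf11b*-high group, *Dmp1* was over 2-fold lower (-1.56 [-1.73, -1.39]), and *Mepe* was higher from 8 to 138 UMIs (3.06 [2.04, 4.30]). In the *Phex*-high group, 2 of 4 members were over 2-fold higher, against 7.21% of 2620 genes, and 0 were over 2-fold lower, against 6.11%. In the *Tnfrsf11b*-high group, 1 of 4 was over 2-fold higher, against 4.78% of 5445 genes, and 1 of 4 was over 2-fold lower, against 2.77%. The cells of the *Phex*-high group were shallower, with a median of 6770.5 and 8431 UMIs against 13524.5 and 12560 UMIs, and its untreated values came from 24 cells. Erythroid markers differed in opposite directions, with 1701 CPM untreated and 20582 CPM with calcitriol in *Phex*-high cells, and with 17454 and 2101 CPM in the *Tnfrsf11b*-high cells. Their part in the ratios was not tested.

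A few other genes of the *Phex*-high group, chosen after their values were seen, are given beside the members. *Bglap*, which encodes osteocalcin, went from 4878 to 352 CPM (log2 ratio: -3.79 [-3.98, -3.61]) and *Col1a1*, the main collagen of bone, from 67148 to 21384 CPM (-1.65 [-1.68, -1.62]). *Alpl*, which encodes the alkaline phosphatase that frees phosphate for mineral, had 77 and 6 UMIs. *Comp*, a cartilage gene, went from 1357 to 91.3 CPM. However, 1 of the 24 untreated cells held 269 of its 308 UMIs, and the median cell held 0 UMIs in both libraries. Of the 1107 untreated UMIs of *Bglap*, 479 lay in 1 cell, and the median cell held 1 and 0 UMIs. Over the whole osteocyte-like cluster, chondrocyte markers (10 of 10 detected) summed to 30124 CPM untreated and 17093 CPM with calcitriol. Erythroid markers (10 and 9 of 10 detected) summed to 14690 and 7131 CPM. Myeloid markers summed to 5.80 and 59.9 CPM, with *Ptprc*, the gene of CD45, at 0 in both libraries. The part of these other markers in the ratios was not tested.

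**Figure D4:**
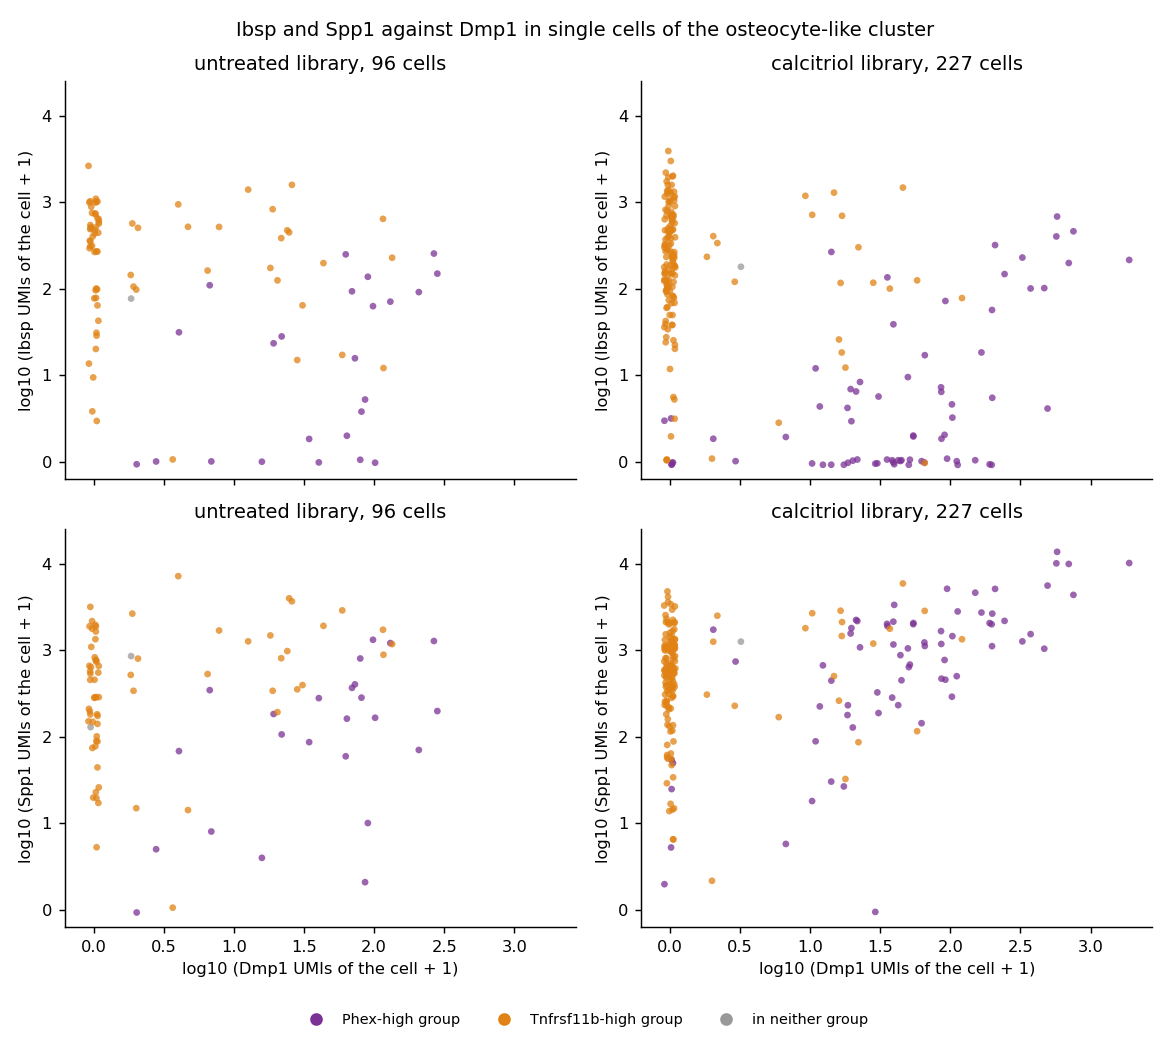
UMIs of *Ibsp* (top) and *Spp1* (bottom) against UMIs of *Dmp1* in each cell of the osteocyte-like cluster, both axes as log10 of UMIs + 1 with a small jitter, untreated cells left (96) and calcitriol cells right (227). Colours give the *Phex*-high (purple) and *Tnfrsf11b*-high (orange) groups, and grey cells are in neither; cells without *Dmp1* are nearly all *Tnfrsf11b*-high and hold much *Ibsp*, while 29 of 87 *Dmp1*-positive calcitriol cells hold no *Ibsp*.

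*Ibsp* and *Spp1* also differed between cells with and without *Dmp1*. Untreated osteocyte-like cells with a UMI of *Dmp1* held a median of 92 UMIs of *Ibsp*, against 413.5 UMIs in cells without *Dmp1*. In the calcitriol library the medians were 5 and 225 UMIs. *Spp1* was at 73376 CPM in cells with and 36294 CPM in cells without *Dmp1* in the untreated library, and at 135905 and 56747 CPM in the calcitriol library. Its medians were 374 and 282 UMIs in the untreated and 1210 and 561.5 UMIs in the calcitriol library. By group, untreated *Spp1* did not go with *Dmp1*, since the *Phex*-high cells held less of it (32380 CPM) than the *Tnfrsf11b*-high cells (56539 CPM). Cells with *Dmp1* were the shallower ones, with a median of 10341.5 against 14227.5 UMIs in the untreated and 9333 against 12534.5 UMIs in the calcitriol library. *Mepe* was detected in 30.0% of the untreated cells with *Dmp1* and in 6.52% of those without, and in 49.4% and 9.29% of the calcitriol cells. *Phex* was detected in 44.0% of the untreated cells with and 13.0% without *Dmp1*, and in 75.9% and 15.7% of the calcitriol cells. Cells of a library are not replicates, and these shares are descriptions.

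Of 6 populations compared, osteocyte-like and *Bglap*-high cells most often held several members at once. UMIs of at least 3 members were found in 52.1% [41.6, 62.4] of the untreated and 38.3% [32, 45.0] of the calcitriol osteocyte-like cells. In *Bglap*-high osteoblast-like cells the shares were 54.7% [40.4, 68.4] and 65.6% [52.7, 77.1], and in *Postn*-high cells 3.38% [1.63, 6.13] and 8.37% [5.32, 12.4]. Among *Col10a1* chondrocyte-like cells, 10.7% [4.72, 19.9] and 10.6% [5.61, 17.8] held at least 3 members, and among articular surface-like cells 4.59% [2.12, 8.54] and 2.65% [1.49, 4.33]. Erythroid-like cells, which should lack these genes, had 0.0433% and 0.461%, at median depths of 10416 and 9865 UMIs per cell.

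All 4 members were found together in 9 of 96 untreated and 25 of 227 calcitriol osteocyte-like cells, and in 1 of 53 and 5 of 64 *Bglap*-high cells. Thinned to 2000 UMIs, with 1 untreated and 7 calcitriol cells left out as too shallow, 32.6% [23.4, 43.0] of the untreated and 31.8% [25.7, 38.4] of the calcitriol osteocyte-like cells still held at least 3 members. The thinned shares of *Bglap*-high cells were 30.2% [18.3, 44.3] and 35.9% [24.3, 48.9]. The common pair was *Spp1* with *Ibsp*, which were found together in 88 of 96 untreated and 191 of 227 calcitriol osteocyte-like cells. At full depth every osteocyte-like cell with *Ibsp* also held *Spp1*, in both libraries. However, *Spp1* was found in 94 of the 96 untreated and 226 of the 227 calcitriol cells, which leaves little room for another outcome. Thinned to 2000 UMIs, 2 untreated and 1 calcitriol osteocyte-like cells held *Ibsp* without *Spp1*. In the *Postn*-high cells of the untreated library, 86 cells held *Ibsp* without *Spp1* and 29 held *Spp1* without *Ibsp*, and in the calcitriol library the numbers were 23 and 44. The share of *Postn*-high cells with none of the members was 20.9% without and 3.42% with calcitriol. Thinned to 2000 UMIs, this share was 36.27% and 11.97%. Among the thinned *Postn*-high cells, 86 untreated and 51 calcitriol cells held *Ibsp* without *Spp1*, and 22 and 46 held *Spp1* without *Ibsp*. Erythroid-like cells, which should lack these genes, differed in the same direction, with 80.9% and 50.9% holding none of the members at full depth. The part of this background in the *Postn*-high counts was not tested.

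**Figure D5:**
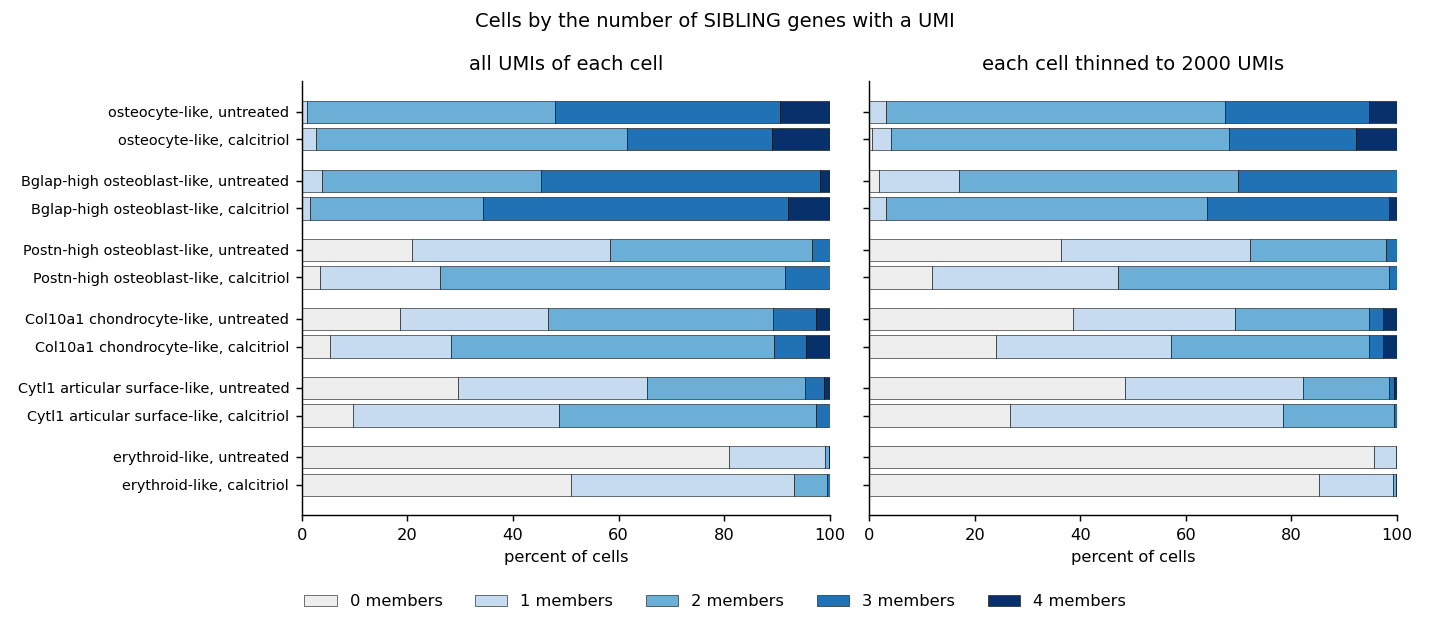
Percent of cells with UMIs of 0, 1, 2, 3 or 4 SIBLING genes in 6 populations and both libraries, with all UMIs (left) and with each cell thinned to 2000 UMIs (right). Osteocyte-like and *Bglap*-high cells hold at least 3 members in 38.3% to 65.6% of cells at full depth, and erythroid-like cells in under 1%.

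Abundant messages such as *Spp1* can be released from broken cells and be counted in droplets of other cells. The level in erythroid-like cells was 19.6 CPM of *Spp1* and 6.37 CPM of *Ibsp* in the untreated library and 69.1 and 30.5 CPM in the calcitriol library. Their share of cells with a UMI of *Spp1* was 15.5% [14.1, 17] and 43.1% [38.4, 47.9]. Barcodes with under 200 genes, which hold few genes besides haemoglobin, were at 19.5 and 110 CPM of *Spp1*. The shares of cells with *Spp1* in fibroblast-like cells (17.1% and 49.3%), *Flt1* endothelial-like cells (18.6% and 41.0%), *Lyve1* endothelial-like cells (13.5% and 51.4%) and smooth muscle-like cells (20.5% and 47.5%) overlapped in their intervals with those of erythroid-like cells of the same library, and were not told apart from background. *Dmp1* was found in 0.303% and 2.53% of the erythroid-like cells and *Mepe* in 0.0433% of the untreated ones. A single untreated erythroid-like cell held 73 of the 79 UMIs of *Dmp1* in that population.

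The genes around the SIBLING proteins were taken from 4 lists. Their counts stand against 4.56% of all genes over 2-fold higher and 2.42% lower in osteocyte-like cells, and 3.32% and 2.63% in osteoblast-like cells. Of 10 kinase, protease and crosslinking genes, 9 were measured in osteocyte-like cells, and 3 were over 2-fold higher and 0 lower with calcitriol. The higher genes were *Mmp14* (50.7 and 172 CPM, log2 ratio 1.76 [1.40, 2.14]) and *Mmp3* (1.45 and 137 CPM, 6.57 [4.71, 9.62]), which encode matrix metalloproteinases, and *Fam20a* (5.07 and 29.2 CPM, 2.52 [1.43, 3.88]), which encodes the partner of FAM20C. *Fam20c* itself was at 264 and 386 CPM (0.55 [0.38, 0.72]) and *Phex* at 281 and 526 CPM (0.90 [0.74, 1.07]). Within the groups of the finer clustering, the log2 ratio of *Phex* was 0.17 [0.0052, 0.34] in *Phex*-high cells, at 1591 and 1791 CPM. It was 1.05 [0.44, 1.72] in *Tnfrsf11b*-high cells, at 23.7 and 49.3 CPM. The part of the mix of these groups in the ratios of the whole cluster was not tested. In osteoblast-like cells, 2 of the 9 measured genes were higher, *Phex* (1.04 [0.65, 1.43]) and *Mmp3* (1.97 [1.75, 2.19]), and 0 were lower. Of the *Phex* UMIs there, 82 of 84 untreated and 165 of 171 calcitriol UMIs lay in *Bglap*-high cells. The 6 calcitriol *Bglap*-high cells with a UMI of *Mepe* held 91 of these 165 UMIs. *Phex* was detected in 30.2% of the untreated and 17.2% of the calcitriol *Bglap*-high cells, opposite to the level.

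Of 9 receptor genes, 6 were measured in osteocyte-like cells and 1 was over 2-fold higher, the integrin gene *Itgb3* (7 and 82 UMIs, log2 ratio 2.31 [1.21, 3.67]), whose protein pairs with the αv chain as a receptor of osteopontin. The receptor genes with the most UMIs, *Cd44* and *Itgb1*, had log2 ratios of -0.098 [-0.29, 0.10] and -0.34 [-0.53, -0.15]. In osteoblast-like cells, 1 of 8 was higher, *Itga4*, from 17 to 34 UMIs. No receptor gene was over 2-fold lower in either population.

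Genes of mineral and bone matrix moved in both directions. Of 11 genes, 10 were measured in osteocyte-like cells, of which 2 were over 2-fold higher and 4 lower. *Ank*, which encodes a transporter of the mineralization inhibitor pyrophosphate, was at 594 and 1834 CPM (1.63 [1.52, 1.73]), and *Mgp*, the gene of the mineralization inhibitor matrix Gla protein, at 3664 and 8518 CPM (1.22 [1.17, 1.26]). *Bglap* (-1.53 [-1.58, -1.47]), *Bglap2* (-2.39 [-2.48, -2.31]), *Smpd3* (-2.42 [-2.70, -2.15]) and *Col1a1* (-1.06 [-1.08, -1.04]) were lower. In osteoblast-like cells, *Enpp1*, the enzyme that makes pyrophosphate, *Ank* and *Mgp* were higher by 1.36 [1.22, 1.5], 1.19 [1.06, 1.31] and 1.90 [1.84, 1.95] on the log2 scale. *Bglap* and *Bglap2* were lower there, with log2 ratios of -1.44 [-1.46, -1.42] and -1.65 [-1.68, -1.62], and *Sparc*, the gene of osteonectin and among the list's most abundant, had -0.53 [-0.54, -0.52].

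All 8 transcription factor genes were measured in both populations. *Vdr*, the vitamin D receptor, was at 24.6 and 51.0 CPM in osteocyte-like cells (1.05 [0.51, 1.63]) and at 26.4 and 75.2 CPM in osteoblast-like cells (1.51 [1.26, 1.77]). *Dlx3* was the only other factor over 2-fold higher, in osteocyte-like cells, from 10 to 53 UMIs (1.17 [0.18, 2.31]). *Runx2* had a log2 ratio of -0.21 [-0.48, 0.068] in osteocyte-like and -0.00049 [-0.13, 0.13] in osteoblast-like cells. No factor was over 2-fold lower.

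The likeness of other genes was described by the correlation of log2(CPM + 10) over 33 groups, each a population in 1 library with at least 20 cells, among 14435 genes. The groups share 2 libraries and are not independent. For *Spp1* the closest gene was *Ibsp* (Pearson's r = 0.890), followed by *Hpgd* (0.841), the parathyroid hormone receptor gene *Pth1r* (0.835), *Alpl* (0.829) and *Enpp1* (0.822). For *Ibsp* the order was *Alpl* (0.902), *Spp1* (0.890), *Omd* (0.847), which encodes the bone proteoglycan osteomodulin, *Rbp4* (0.843) and *Pth1r* (0.834). *Dmp1* was closest to *Msi1* (0.936), *Ccdc194* (0.934), *Cysltr2* (0.932), *Rhbdl2* (0.927) and the Wnt antagonist gene *Dkk1* (0.908). *Mepe* was closest to *Gm32200* (0.931), *2310043M15Rik* (0.879), *Phex* (0.875), *Gsg1* (0.874) and *Ighm* (0.852). Its level was above 36 CPM only in the osteocyte-like cells of both libraries and in calcitriol *Bglap*-high cells, there through 1 cell. *Dmp1* was at or under 60.3 CPM in every population other than the osteocyte-like and *Bglap*-high cells. The correlations of *Mepe* and of *Dmp1* therefore rest on few groups. Between members, r was 0.845 for *Dmp1* and *Mepe*, and 0.609 to 0.721 for every pair of *Spp1* or *Ibsp* with *Dmp1* or *Mepe*.

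UMIs of *Fgf23*, the phosphate-lowering hormone gene, were found in 8 of 227 calcitriol and 0 of 96 untreated osteocyte-like cells. For the untreated cells, a count of 0, taken as under 3 cells, allows a share of up to 3.125%. All 8 held *Dmp1*, 7 held *Mepe* and 7 held *Ibsp*, with *Spp1* at 161996 CPM, *Dmp1* at 19587 CPM and *Mepe* at 9750 CPM, against 80117, 2097 and 888.5 CPM in the other 219 calcitriol osteocyte-like cells. *Ibsp* was lower in the 8 cells, at 4259 against 24803 CPM. The calcitriol *Phex*-high group as a whole was at 3893 CPM of *Ibsp*, 145776 CPM of *Spp1*, 11167 CPM of *Dmp1* and 5148 CPM of *Mepe*. Low *Ibsp* and high *Spp1* were therefore not particular to the cells with *Fgf23*. The 8 cells were also deeper, with a median of 15558.5 UMIs against 11774 UMIs in the other 219 cells.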

How the data were processed

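Femoral cells of untreated and calcitriol-injected mice were sequenced as 1 library per group with the Chromium Next GEM 3′ chemistry, which counts each captured mRNA molecule once from its 3′ end. The deposited files hold unnormalized UMI counts, 1 matrix of genes by barcodes for either library, which the authors made with Cell Ranger 4.0.0 on mm10 (GRCm38). From these counts, those barcodes that had at least 200 genes were taken, and the libraries were first clustered separately. Clusters past all 3 limits of the study (mitochondrial share above 10%, under 1000 genes and under 2000 UMIs, as medians) were left out, which were 2 of 20 untreated clusters (233 cells) and 1 of 18 calcitriol clusters (229 cells). The remaining cells were integrated and clustered with Seurat 5.3.0 under R 4.3.3 (version 3.2.2 in the submitters' notes) on 2000 variable genes without the 4 members, with 30 principal components at resolution 0.8.

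A cluster was named from at least 3 markers of a list, each in at least 10% of its cells and at least 2-fold above the other clusters with a pseudocount of 10 CPM. The members were in no list. A cluster led by *S100a9* and *S100a8* was left unnamed, with 5 marrow stroma and 5 myeloid markers. Doublets were kept, since the automatic limit of Scrublet (scanpy 1.11.5) marked only 1 and 4 cells. The 155 and 109 cells with the highest scores, 3.52% and 2.95% of the cells, were left out as an alternative.

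Levels are summed UMIs as CPM. Intervals are exact at 95% (Poisson for levels, Clopper-Pearson for shares, conditional binomial for ratios). Ratios against 0 UMIs are not given, apart from the thinned *Mepe* ratio of osteoblast-like cells. With 1 library in a group there was no p-value to give. The ratio and its interval were tested on simulated Poisson counts, which hold only the counting error that the interval assumes. The uneven spread of UMIs over cells was not simulated. Other steps ran in Python 3.11.15 (pandas 2.3.3, numpy 2.4.6, scipy 1.17.1), and plots were drawn with matplotlib 3.10.9. Gene coordinates and coding sequences came from GENCODE vM21, promoter windows from RefSeq. The members, the gene lists and the marker lists were chosen with earlier results of these data known. Named genes are the 4 members, the genes with the most UMIs in lists of modifying enzymes, receptors, mineral and matrix genes and transcription factors, the 5 genes most like each member, *Fgf23*, and markers. List genes named because they passed 2-fold, and the genes given for the groups of the finer clustering, were chosen after their values were seen. Reads, in situ hybridization, PCR and serum values were not analysed here.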

Additional observations from a re-analysis of the deposited data

Results flagged for a closer look

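In 5 populations the ratio of a member had a counting interval on the other side of 0 from that of the osteoblast-like cells (both populations together). The differences between these ratios were not tested, since each group is 1 library. The log2 ratio of *Spp1* was -0.25 in *Col10a1* chondrocyte-like cells and -0.41 [-0.74, -0.081] in *Clic5* synovial lining-like cells, against 2.29 in osteoblast-like cells. In the *Clic5* cells, *Spp1* had 100 and 378 UMIs, of which 1 cell held 47.0% and 67.7%. *Ibsp* was at -0.023 in osteocyte-like cells, against 1.14. *Dmp1* was at -0.89 in *Postn*-high osteoblast-like cells and at -2.60 [-3.45, -1.80] in articular surface-like cells, against 1.07. The last of these rests on 41 untreated and 20 calcitriol UMIs, and 1 untreated cell held 30 of them. The *Postn*-high cells are themselves part of the 1.07, where *Bglap*-high cells held 2787 of the 2920 calcitriol UMIs. In the *Postn*-high cells, 1 cell held 139 of the 260 untreated UMIs, and the levels without the top cells were 23.5 and 19.4 CPM.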

How the results depend on the processing

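No paired analysis was possible because each group holds 1 library. All values are log2 ratios, calcitriol over untreated, unless given as percent, and osteoblast-like means both populations. In osteoblast-like cells, *Spp1* and *Mepe* stayed over 2-fold higher in 12 of 12 alternatives, *Ibsp* in 11 and *Dmp1* in 8. In osteocyte-like cells, *Mepe* did so in 11 of 13, *Spp1* in 2, *Dmp1* in 4 and *Ibsp* in 0, and *Ibsp* had the same sign in 8 and *Dmp1* in 12. These counts use the ratio alone, without the minimum of 50 UMIs. For osteoblast-like *Mepe*, 467 of the 494 calcitriol UMIs lay in 1 cell, and the thinned untreated cells held 0 UMIs, taken as 3 for the ratio.
With the members among the variable genes, *Spp1*, *Ibsp* and *Dmp1* were at 0.46, 0.26 and 1.03 in osteocyte-like cells, and *Spp1* and *Ibsp* at 2.26 and 1.11 in osteoblast-like cells. At resolution 0.5 the osteocyte-like values were 0.45, 0.26 and 1.04, and osteoblast-like *Spp1* was 2.27. With 20 principal components they were 0.47, 0.29 and 1.09. At resolution 1.2, where fewer cells (24 and 71) are called osteocyte-like, *Spp1*, *Ibsp*, *Dmp1* and *Mepe* were at 2.17, -0.53, 0.50 and 1.38 there and at 1.61, 0.95, 0.49 and 5.52 in osteoblast-like cells, and 91.7% and 77.5% of osteocyte-like cells held at least 3 members. Without integration, the 4 osteocyte-like values were 0.67, -0.21, 0.70 and 1.90, and osteoblast-like *Spp1*, *Ibsp* and *Dmp1* were 2.19, 1.09 and 0.72. With clusters past any limit left out, osteocyte-like *Spp1* and *Ibsp* were 0.64 and -0.28, and osteoblast-like *Spp1*, *Ibsp* and *Dmp1* 2.24, 1.07 and 0.80. Without predicted doublets, *Spp1* was 0.67 in osteocyte-like and 2.25 in osteoblast-like cells, where *Ibsp* was 1.37. With totals free of haemoglobin and mitochondrial genes, *Spp1* was 0.68 and 2.28. As means of the cells' own CPM, the 4 osteocyte-like values were 0.81, -0.083, 0.024 and 0.61, and osteoblast-like *Spp1*, *Ibsp* and *Mepe* were 2.41, 1.04 and 5.18. Thinned to 2000 UMIs, osteocyte-like *Spp1*, *Dmp1* and *Mepe* were 0.82, -0.13 and 0.70, the osteoblast-like values 2.38, 1.02, 0.98 and 2.22, and at least 3 members were found in 32.6% and 31.8% of osteocyte-like cells. Among cells of any cluster with 2 osteocyte markers (1390 and 2234 cells), the values were 1.10, 0.83, 1.03 and 2.44, with 7.41% and 8.06% of cells holding at least 3 members.
Leaving out the cell with the most UMIs of the gene in each library gave 0.76, 0.67 and 2.65 for osteocyte-like *Spp1*, *Dmp1* and *Mepe*, and 2.34 and 4.78 for osteoblast-like *Spp1* and *Mepe*. Totals without the members, an alternative chosen after seeing the data, gave 0.75 and 0.033 for osteocyte-like *Spp1* and *Ibsp*, and 2.36 and 1.21 for osteoblast-like cells. With a minimum of 200 UMIs, 2.76% of genes were over 2-fold higher in osteocyte-like and 2.07% in osteoblast-like cells. The cause of these shifts was not tested. Intervals cover counting error only, and low counts limit *Mepe* and *Dmp1* outside bone populations.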
